A study of Mus musculus with 8 samples.

Results

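Resident macrophage scavenger-type genes were followed in the RNA of cardiac macrophages. The set holds 10 genes, Timd4, Lyve1, Cbr2, Fcna, F13a1, Cd163, Mrc1, Stab1, Vsig4 and Pf4, taken by gene symbol from a table of 24516 genes, and all 10 were among the 7667 genes with enough counts to be tested. Flow cytometry divided the cells, from the hearts of 28-day-old (postnatal day 28) C57BL/6 mice, into endocardially derived macrophages (EcTM, 4 libraries named E591, E592, E604 and E606) and macrophages without that origin (non-EcTM, 4 libraries named N591, N592, N604 and N606). Mice of both groups had the genotype Nfatc1Cre/+; Rosa26Tomato reporter/+. The non-EcTM therefore also come from animals in which Cre occupies 1 copy of Nfatc1, active in the endocardium, the inner lining of the heart. The reporter, once recombined by Cre, marks the descendants of cells that expressed Nfatc1, and the gates of the sort are not described in the sources used here. The comparison asks how EcTM differ from non-EcTM, and each number gives a pair of libraries, 1 from each group.

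Tissue-resident macrophages of the heart settle largely before birth and maintain themselves by division, with a changing addition from blood monocytes. Their usual marker genes encode proteins that bind and remove material from the tissue, such as dead cells, modified lipoproteins, haemoglobin, hyaluronan and opsonised particles. Timd4 and Lyve1 in particular mark the long-lived subset. Cbr2, F13a1 and Pf4 are not uptake receptors. Cbr2 encodes a carbonyl reductase, F13a1 the A subunit of the fibrin-crosslinking coagulation factor XIII, and Pf4 the chemokine CXCL4, also stored in platelets.

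No gene of the set passed the threshold for a difference between EcTM and non-EcTM. The fitted levels in EcTM were 0.739 of the non-EcTM level for the dead-cell receptor gene Timd4, 0.731 for the ficolin gene Fcna and 0.814 for the reductase gene Cbr2. The abundant receptor genes Mrc1, Stab1 and Lyve1 stood at 0.996, 0.956 and 0.943 of it, and F13a1 was counted in some libraries and near 0 in others. Levels are given in CPM, read counts relative to the library total after TMM scaling. The groups were compared with edgeR's quasi-likelihood test with the library number as a block, and p-values were adjusted over all 7667 tested genes, with 0.05 as the threshold. The test called 0 of 10 genes of the set and 1 of all tested genes (0.013%), the integrin gene Itga9, with an adjusted p of 1.12e-04. DESeq2 with the same block called 0 of the 9 genes of the set to which it gave an adjusted p (it gave none to Cd163), beside 17 of 4325 such genes over all (0.393%). Itga9 was not among those 17 (adjusted p 0.0641), nor was it called by edgeR without the block (0.315). At an unadjusted p under 0.05, 3 of the 10 were lower in EcTM (Timd4, Cbr2 and Fcna) and 0 were higher, beside 2.63% of all tested genes lower and 2.77% higher. Log2 fold changes were below 0 in 8 of 10 genes, beside 51.5% of all tested genes, and their median was -0.13 beside -0.010 over all tested genes. The groups overlapped in all 10 genes: in 0 of 10 did all 4 EcTM libraries lie below all 4 non-EcTM libraries (1.41% of all tested genes) and in 0 of 10 above them (1.29%). In the 8 libraries 12 of 12 macrophage markers were counted, and their summed level ran between 23837 and 24288 CPM in EcTM, against 21802 to 23793 in non-EcTM. Total counts were 2152425 to 2576407 in EcTM and 2281657 to 2937464 in non-EcTM. In bulk RNA, fewer cells of a type and less RNA per cell cannot be told apart. The labels do not say what a number stands for, so that the p-values measure the spread between these libraries, which may be in part technical.

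**Figure D1:**
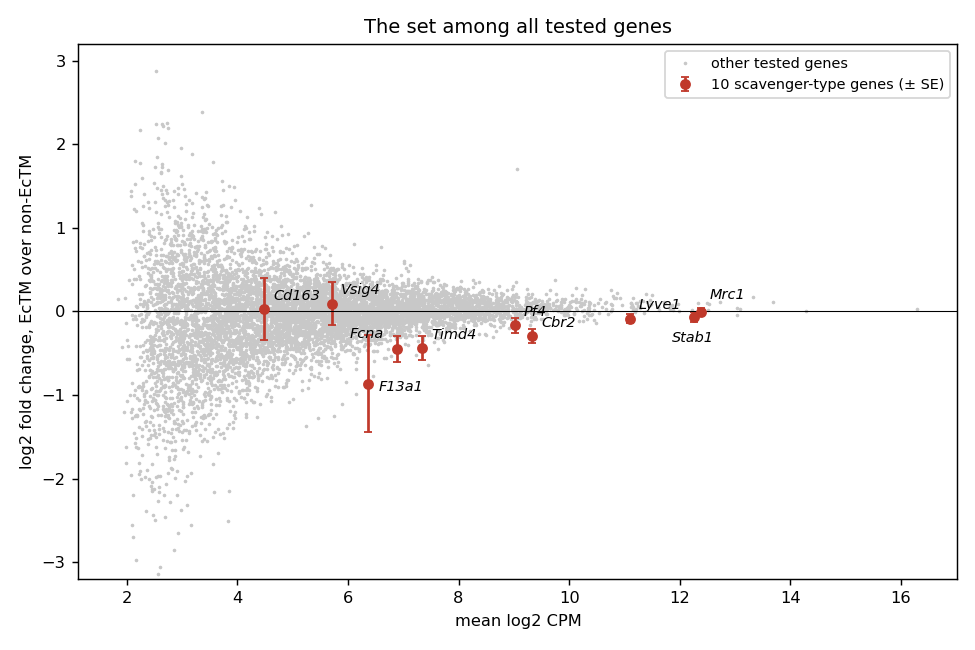
Log2 fold change, EcTM over non-EcTM, against mean log2 CPM for 7667 tested genes (grey) and the 10 scavenger-type genes (red, ± SE of the fit). Timd4, Fcna, Cbr2, Pf4, Lyve1, Stab1 and F13a1 lie below 0 by more than their SE, and the abundant Mrc1 and Stab1 lie close to 0.

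The 3 genes with the smallest p-values are shown with their promoters, and Mrc1, which had the fold change nearest to 0 in the set, is set beside them. RefSeq promoter windows (build GRCm38.p6) were at hand for 9 of the 10 genes, Lyve1 being the other, and the 250 bases before each listed start were searched on both strands for 3 motifs of macrophage regulators. GAGGAA, the core bound by the myeloid factor PU.1, was found in 7 of the 9 genes, and 23.3% of all 32851 windows hold it. TGCTGA, a core of the MAF recognition element, was found in 3 of the 9 (Timd4, Fcna and Stab1) and in 16.1% of all windows, and CACGTG, the E-box of the lysosomal regulators TFEB and TFE3, in 0 of the 9 and in 6.02% of all windows. Counted by window, as the shares of all windows are, the 3 motifs were in 7, 3 and 0 of 10, since F13a1 has 2 windows. The windows of Timd4 and Cd163 held no GAGGAA, and no base lay in more than 1 motif. A match is a description of letters and not evidence of binding. The windows below are written 5′ to 3′ on the strand of the gene, with the matches to GAGGAA and TGCTGA, or to their reverse complements, in capitals. They lie at chr11:46810549-46810798 on the plus strand for Timd4, chr11:120732022-120732271 on the minus strand for Cbr2, chr2:25627975-25628224 on the minus strand for Fcna and chr2:14229164-14229413 on the plus strand for Mrc1. The listed starts of Timd4, Cbr2 and Fcna lie inside the spans of these genes given further on, those of Timd4 and Cbr2 close to the edge.
Timd4: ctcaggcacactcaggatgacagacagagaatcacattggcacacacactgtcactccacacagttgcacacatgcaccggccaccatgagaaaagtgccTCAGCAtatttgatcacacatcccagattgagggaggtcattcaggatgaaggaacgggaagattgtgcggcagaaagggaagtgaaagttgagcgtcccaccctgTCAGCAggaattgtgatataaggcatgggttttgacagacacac
Cbr2: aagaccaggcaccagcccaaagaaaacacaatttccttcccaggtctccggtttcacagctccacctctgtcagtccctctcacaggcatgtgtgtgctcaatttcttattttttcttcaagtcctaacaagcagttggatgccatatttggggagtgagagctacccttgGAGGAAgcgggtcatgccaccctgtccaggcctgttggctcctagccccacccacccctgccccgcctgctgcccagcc
Fcna: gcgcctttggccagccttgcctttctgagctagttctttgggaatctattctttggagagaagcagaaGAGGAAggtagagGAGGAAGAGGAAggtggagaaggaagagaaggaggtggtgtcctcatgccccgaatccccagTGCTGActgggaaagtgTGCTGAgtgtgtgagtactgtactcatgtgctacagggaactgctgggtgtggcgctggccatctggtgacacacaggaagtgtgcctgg
Mrc1: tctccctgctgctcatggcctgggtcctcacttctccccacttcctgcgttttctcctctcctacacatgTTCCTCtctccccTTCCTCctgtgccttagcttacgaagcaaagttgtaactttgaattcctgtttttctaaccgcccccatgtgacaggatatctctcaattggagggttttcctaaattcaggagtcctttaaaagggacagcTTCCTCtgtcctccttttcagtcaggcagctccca
Timd4 and Fcna carry TGCTGA at 2 places each, read on the strand of the gene in Fcna and on the other strand in Timd4. Fcna and Mrc1 carry GAGGAA at 3 places each and Cbr2 at 1, so that no motif of the 3 was shared by Timd4, Cbr2 and Fcna, and GAGGAA was also present in Mrc1.

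Timd4 encodes TIM-4, a receptor for the phosphatidylserine exposed on dying cells. It lies on chromosome 11 from 46810786 to 46844333. Its level was 178, 128, 149.6 and 94.8 CPM in E591, E592, E604 and E606, against 221, 206, 143 and 166 CPM in N591, N592, N604 and N606. EcTM were lower in the pairs E591/N591, E592/N592 and E606/N606 and not in the pair E604/N604, and E591 stood above N604 and N606. On average EcTM had 138 ± 35.2 CPM, against 184 ± 35.9 CPM in non-EcTM (SD, n = 4 each). The fitted log2 fold change was -0.44 ± 0.15 (SE), or 0.739 of the non-EcTM level with a 95% interval of 0.600 to 0.912, at an unadjusted p of 0.00662 and an adjusted p of 0.751. The log2 ratios within pairs were -0.31 in E591/N591, -0.69 in E592/N592, 0.07 in E604/N604 and -0.81 in E606/N606. The 95% intervals for counting error alone (exact binomial) were -0.15 to 0.29 in E604/N604 and -1.04 to -0.59 in E606/N606, so that the ratios of these pairs differed by more than counting error.

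Fcna encodes ficolin A, a secreted lectin that starts the lectin pathway of complement in mice. The gene spans 25624665 to 25635440 of chromosome 2. It had 68.6, 101.4, 104 and 126 CPM in E591, E592, E604 and E606, against 119, 135, 144 and 141 CPM in N591, N592, N604 and N606. EcTM were lower in all 4 pairs, and E606 alone of the EcTM libraries stood above a non-EcTM library, N591. EcTM averaged 99.99 ± 23.5 CPM and non-EcTM 135 ± 10.9 CPM (SD, n = 4 each). The log2 fold change was -0.45 ± 0.16 (SE), with an unadjusted p of 0.00759 and an adjusted p of 0.751. The within-pair log2 ratio ran from -0.79 in E591/N591 to -0.17 in E606/N606. The annotated antisense gene Fcnaos overlaps Fcna, and since the strand setting of the counting is not given in the sources used here, reads of the overlap cannot be assigned to Fcna with certainty.

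Cbr2 had the smallest p of the set. This reductase gene lies on chromosome 11 from 120729485 to 120732025, 73.9 Mb from Timd4. Levels of 540.2, 508, 713 and 562 CPM were found in E591, E592, E604 and E606, against 738, 707, 777 and 618 CPM in N591, N592, N604 and N606. EcTM were lower in all 4 pairs, and E604 stood above N592 and N606. EcTM averaged 581 ± 91.0 CPM and non-EcTM 710.2 ± 67.9 CPM (SD, n = 4 each). The log2 fold change was -0.30 ± 0.08 (SE), or 0.814 of the non-EcTM level with a 95% interval of 0.722 to 0.918, at an unadjusted p of 0.00173 and an adjusted p of 0.524. The pairs differed in size, with log2 ratios of -0.45 and -0.48 in E591/N591 and E592/N592 and of -0.12 and -0.14 in E604/N604 and E606/N606. With DESeq2 and the same block the adjusted p of Cbr2 was 0.0593, the lowest over 19 alternative settings, whose highest was 0.9998.

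Pf4, on chromosome 5 from 90772435 to 90773383, was the third gene lower in EcTM in all 4 pairs, together with Fcna and Cbr2. Over all tested genes 6.93% were lower in all 4 pairs, and 0 of the 10 genes were higher in all 4, beside 7.26%. Pf4 stood at 442, 451, 504 and 551 CPM in E591, E592, E604 and E606, against 478, 586, 531 and 592.1 CPM in N591, N592, N604 and N606. The groups overlapped, and the difference was smaller than the spread between numbers. The log2 fold change was -0.17 ± 0.09 (SE) with a 95% interval of -0.34 to 0.0084 and an adjusted p of 0.921. Pair E592/N592 gave a log2 ratio of -0.38 and the others -0.11 to -0.07. Platelets hold Pf4 as well, and 5 of 11 platelet and megakaryocyte markers were at 0, Gp1bb, Gp6, Treml1 and Clec1b among them, in the 8 libraries. Of all 24516 genes 10197 were at 0 in the 8 libraries, so that a marker at 0 could not be read as absence of its cells. The summed level of the 11 ran between 8.10 and 25.0 CPM in EcTM, against 9.93 to 30.4 in non-EcTM, and its part in the Pf4 values was not tested.

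**Figure D2:**
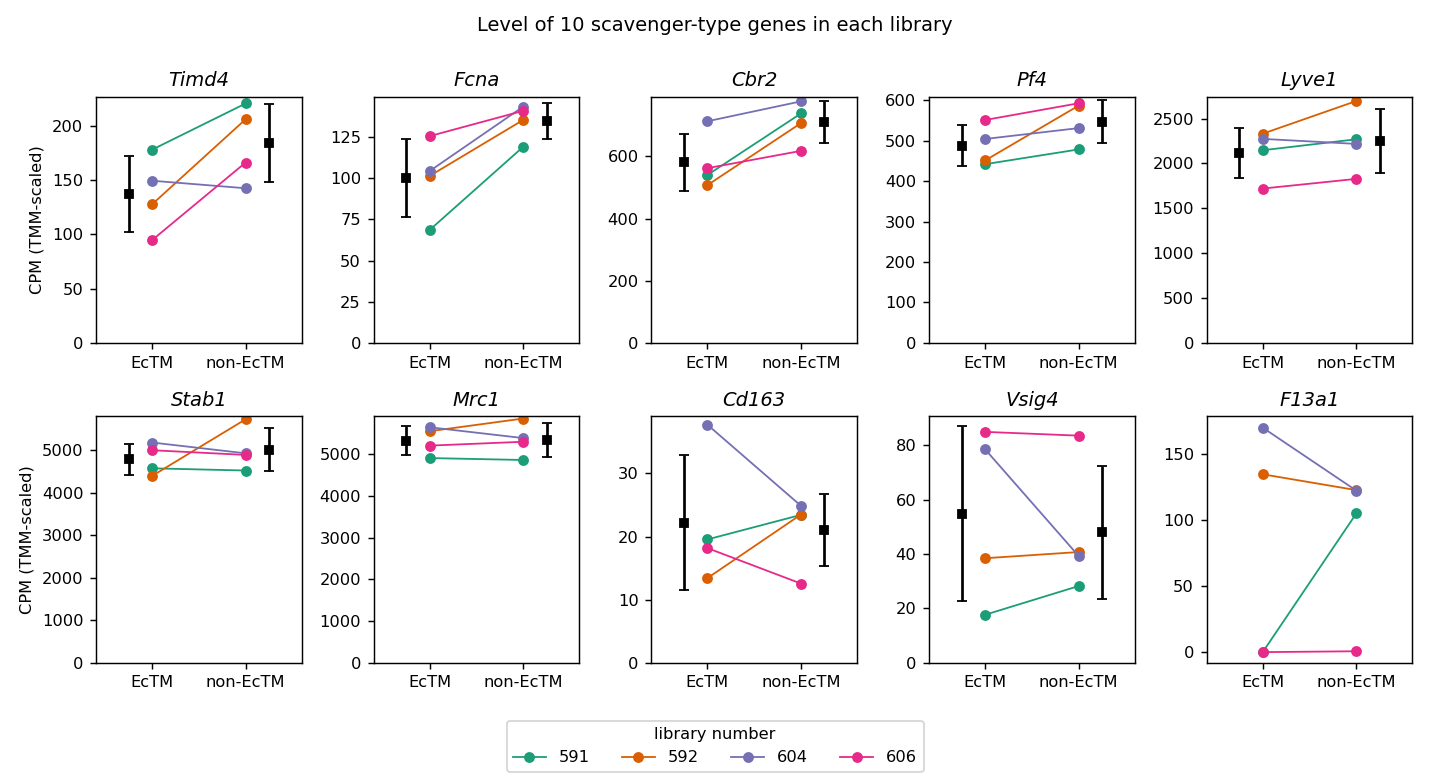
Level (CPM) of the 10 genes in each library, EcTM on the left and non-EcTM on the right of each panel, with lines between same-numbered libraries, and mean ± SD as black squares (n = 4, not drawn for F13a1). Fcna, Cbr2 and Pf4 are lower in EcTM in all 4 pairs, Vsig4 and Lyve1 separate by number, and F13a1 is at or near 0 in E591, E606 and N606.

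Mrc1 and Stab1, both abundant uptake receptor genes, had fold changes near 0 with narrow intervals. Mrc1 encodes the mannose receptor CD206, a C-type lectin that takes up glycoproteins, and lies on chromosome 2 from 14229414 to 14332023, where it hosts the microRNA gene Mir511. Its level was 4908, 5552, 5647 and 5207 CPM in E591, E592, E604 and E606, against 4862, 5857, 5387 and 5299 CPM in N591, N592, N604 and N606. EcTM were lower in 2 of 4 pairs. The log2 fold change was -0.0053 ± 0.042 (SE), with a 95% interval of 0.938 to 1.06 for the ratio of EcTM to non-EcTM, and an adjusted p of 0.998. Stab1, on chromosome 14 from 31139017 to 31168651, encodes stabilin-1, which clears modified lipoproteins and matrix fragments. It stood at 4569.6, 4390.2, 5176 and 4995 CPM in E591, E592, E604 and E606, against 4517, 5722, 4922 and 4884 CPM in N591, N592, N604 and N606. Only pair E592/N592 was lower in EcTM, with a log2 ratio of -0.38, and the other pairs gave 0.02 to 0.07. The fitted value of Stab1 was -0.06 ± 0.06 (SE) with an adjusted p of 0.964, and leaving out both libraries of E592/N592 turned it to 0.04. Nt5dc2 overlaps Stab1 on the other strand.

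Lyve1 encodes a hyaluronan receptor of lymphatic endothelium and of perivascular macrophages and lies on chromosome 7 from 110850607 to 110862953. It had 2147, 2331, 2273 and 1719.6 CPM in E591, E592, E604 and E606, against 2269, 2695, 2217 and 1828 CPM in N591, N592, N604 and N606. Both libraries of E606/N606 were the lowest of their groups and both of E592/N592 the highest. EcTM were lower in 3 of 4 pairs, and the log2 fold change was -0.09 ± 0.06 (SE) with a 95% interval of -0.20 to 0.03 and an adjusted p of 0.946. Since lymphatic endothelium also expresses Lyve1, its markers were read in the same libraries. Pdpn, Ccl21a, Reln and Mmrn1, 4 of the 6, were at 0 in the 8 libraries, and the 6 summed to between 13.8 and 25.3 CPM in EcTM, against 19.5 to 39.3 in non-EcTM. A marker at 0, here as in the next list, could not be read as absence of its cells, and the sums rest on the counted markers. Markers of blood endothelium and endocardium summed to between 32.5 and 338 CPM in EcTM, against 87.7 to 899 in non-EcTM, the highest in N591, with 5 of the 12 (Pecam1, Tek, Emcn, Erg and Npr3) at 0. Among them Kdr had a log2 fold change of -1.26 ± 0.41 (SE) and Ptprb one of -1.10 ± 0.36, neither past the threshold, and without both libraries of E591/N591 these were -0.83 and -0.81. Without both libraries of E606/N606 they were -2.004 (adjusted p 0.135) and -1.86, and Ptprb then passed the threshold (0.0158). Without both libraries of E591/N591 Lyve1 stood at -0.09, Stab1 at -0.09 and Mrc1 at -0.011.

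Vsig4 and Cd163 varied widely between numbers and had fold changes above 0. Vsig4 encodes the complement receptor CRIg, which binds particles coated with fragments of C3, and lies on chromosome X from 96247201 to 96293438. Its level was 17.6, 38.4, 78.5 and 84.9 CPM in E591, E592, E604 and E606, against 28.2, 40.7, 39.3 and 83.5 CPM in N591, N592, N604 and N606. Libraries of E591/N591 were low and those of E606/N606 high in both groups, and E604 stood above N604, with a log2 ratio of 0.99 and a counting interval of 0.63 to 1.38. The fitted log2 fold change was 0.09 ± 0.26 (SE) with an adjusted p of 0.994, and it turned to -0.22 without both libraries of E604/N604. Cd163, on chromosome 6 from 124304636 to 124330529, encodes the receptor for haemoglobin bound to haptoglobin. It had 41, 30, 86 and 46 counts in E591, E592, E604 and E606, or 19.5, 13.4, 37.7 and 18.2 CPM, against 59, 60, 57 and 38 counts, or 23.4, 23.5, 24.9 and 12.5 CPM, in N591, N592, N604 and N606. EcTM were lower in 2 pairs and higher in 2. The log2 fold change of Cd163 was 0.03 ± 0.37 (SE), with a 95% interval from 0.600 to 1.73 for the ratio, so that ratios within that interval remain possible. Its log2 ratio was -0.77 in E592/N592, with a counting interval of -1.49 to -0.15. In E604/N604 it was 0.59, with a counting interval of 0.10 to 1.11, so that these pairs differed by more than counting error.

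F13a1 was the 1 gene of the set with a count of 0 in any library. It lies on chromosome 13 from 36867178 to 37050244. Its counts were 0, 301, 387 and 0 in E591, E592, E604 and E606, against 264, 313, 280 and 2 in N591, N592, N604 and N606. In CPM this was 134 and 169.7 in E592 and E604, against 105, 123 and 122 in N591, N592 and N604, so that the gene was well counted in 5 libraries and at or near 0 in E591, E606 and N606. The limit that a count of 0 allows, taken as 3 counts, is 1.43 CPM in E591 and 1.18 CPM in E606. The measured level of N591 was 73.4-fold the limit of E591, a ratio that leaves out the counting error of N591. With the counting error of both libraries, the upper end of the counting interval (exact binomial) of the log2 ratio in E591/N591 was -5.89. These bounds cover counting error only. No ratio is given for E606/N606, where both libraries lie under the limit. In the other pairs the log2 ratio was 0.13 in E592/N592 and 0.47 in E604/N604. The fitted log2 fold change of -0.86 ± 0.58 (SE, adjusted p 0.94999) averages over these patterns and turned to 0.26 without both libraries of E591/N591. Of 4251 genes with at least 100 counts in some library, 17 were at 2 counts or fewer in another, and F13a1 was the 1 gene low in exactly E591, E606 and N606 among those with at least 100 counts in each of the other 5. F13a1 and Cd163 have 2 curated RefSeq transcripts and the other 8 genes have 1. Among ribosomal protein genes, the median total count over the 8 libraries was 19 for 21 genes with at least 2 curated transcripts and 377 for 60 with 1, a difference that was not examined in other genes. Whether the number of transcripts touches F13a1 in single libraries was not tested. The annotated antisense genes Gm49144 and Gm30489 overlap F13a1.

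**Figure D3:**
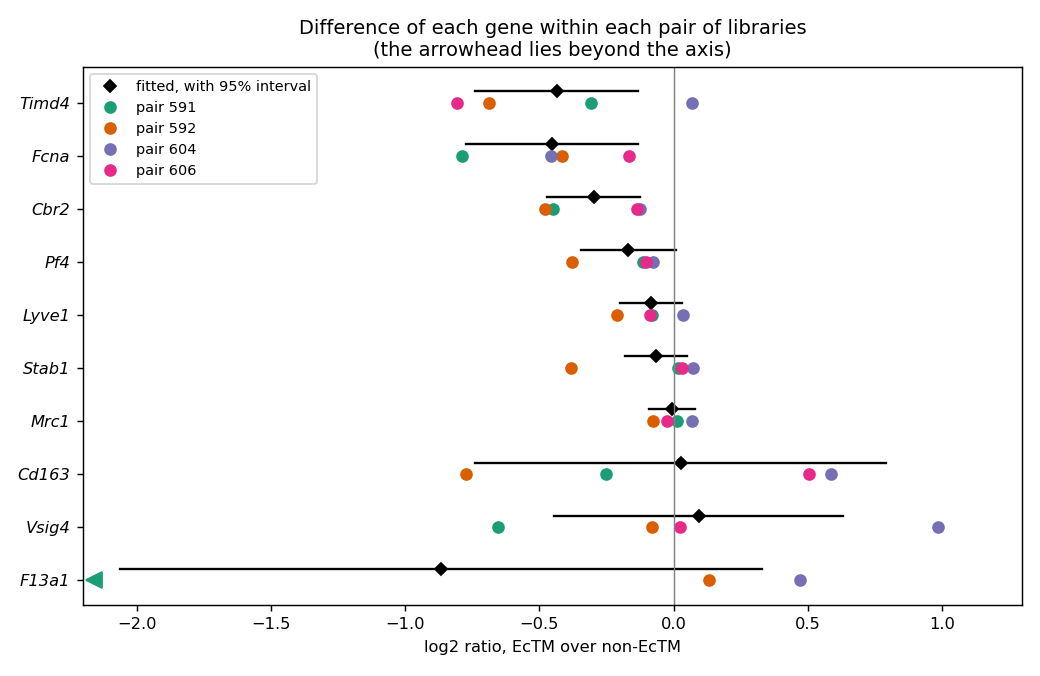
Log2 ratio of EcTM over non-EcTM within each pair of libraries (coloured points) and the fitted log2 fold change with its 95% interval (black) for the 10 genes. Most points of pair E592/N592 lie left of 0 and most of pair E604/N604 right of it. The arrowhead stands for F13a1 in pair E591/N591, and its pair E606/N606 is not drawn because both libraries lie under the level of 3 counts.

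Whether the genes moved together was read within each pair, for the 9 genes other than F13a1. In pair E592/N592 all 9 were lower in E592, with a median log2 ratio of -0.38 and a range of -0.77 to -0.08, beside 49.5% of all tested genes lower. In pair E591/N591 it was 7 of 9, with a median of -0.25, beside 49.8% of all tested genes. In pair E606/N606 it was 6 of 9, with a median of -0.09, beside 50.5%. The pair E592/N592 also stood apart in sex-linked genes, with 1 and 8 counts of Xist in E592 and N592, against 935 to 1682 in the other 6 libraries, and 260 and 307 counts of the Y-linked Ddx3y, against 1 to 7. The part of this in the lower values of E592 was not tested. Pair E604/N604 went the other way, with 3 of 9 lower (Fcna, Cbr2 and Pf4), 6 higher and a median of 0.07, beside 49.4% of all tested genes lower. The same pair stood apart in Itga9, whose log2 ratio was 0.25 in E604/N604 and 1.71 to 2.60 in the others. Whether this has a part in the ratios of the 9 genes in E604/N604 was not tested. With 4 pairs an exact two-sided sign-flip test of a single gene cannot go below a p of 0.125. Among the genes in the other 3 pairs, Mrc1 and Stab1 stayed within -0.08 and 0.03 except for Stab1 in E592/N592, while Timd4 and Fcna reached -0.81 and -0.79 in different pairs, E606/N606 and E591/N591.

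Counts set against the Mrc1 counts of the same library gave a reading that no scaling between libraries can change. Per 1000 counts of Mrc1, Fcna had 13.98, 18.3, 18.5 and 24.1 in E591, E592, E604 and E606, against 24.5, 23.1, 26.6 and 26.6 in N591, N592, N604 and N606. Fcna was lower in EcTM in all 4 pairs and the groups overlapped only through E606. In the same measure Cbr2 had 110.07, 91.4, 126 and 108 in E591, E592, E604 and E606, against 152, 121, 144 and 117 in N591, N592, N604 and N606. Lyve1 and Pf4 were also lower in EcTM in all 4 pairs against Mrc1, which made 4 of 9 genes beside 6.52% of the other 7666 tested genes. Lyve1 had 403 in E604 against 412 in N604, a pair in which its log2 ratio in CPM was 0.04. All 9 genes are divided by the same Mrc1 counts, so that they are not separate readings. Timd4 was lower in 3 of 4 pairs, F13a1, Cd163 and Vsig4 in 2 of 4 and Stab1 in 1 of 4, with the groups overlapping in each of the 9.

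How far each gene varied with the number and how far with the group was described by its sums of squares of log2 CPM over the 8 libraries, with no test. The group took 48.6% of the spread of Fcna, 47.1% of Cbr2, 35.2% of Timd4 and 30.6% of Pf4, beside a median of 7.56% over all tested genes. These were the highest shares in the set, whose own median was 7.54%. Cd163, Mrc1 and Vsig4 had the lowest, at 0.03%, 0.09% and 0.21%. For Lyve1, Mrc1 and Vsig4 the number took 89.9%, 90.8% and 84.3%, beside a median of 48.1%. Stab1 differed from both kinds, with 64.1% of its spread in neither. The whole spread was small in Mrc1, at a root mean square of 0.09 log2 units, and large in Vsig4, at 0.75.

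**Figure D4:**
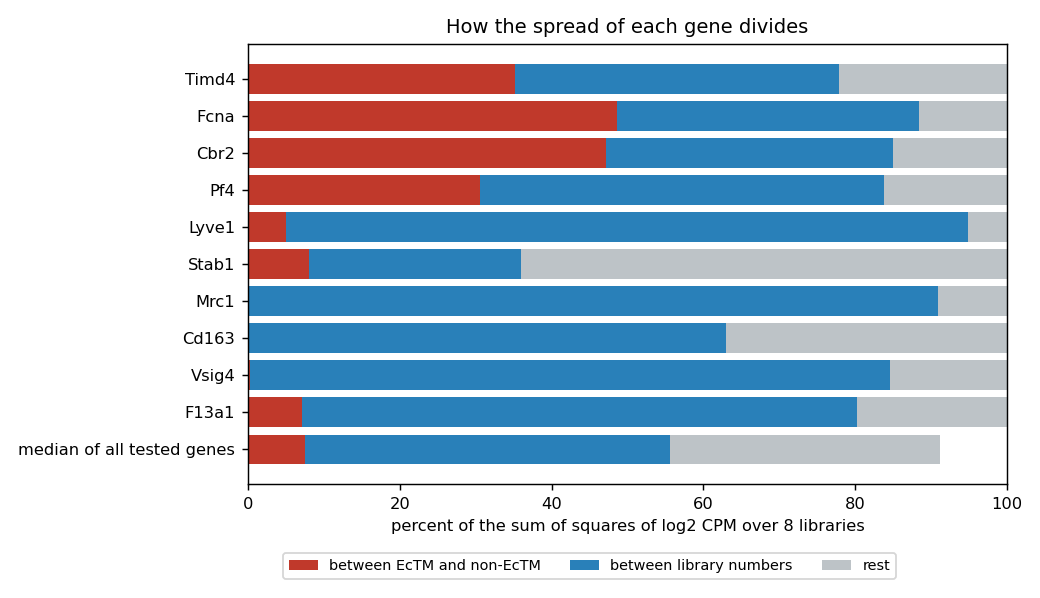
Percent of the sum of squares of log2 CPM over 8 libraries that lies between EcTM and non-EcTM (red), between library numbers (blue) and in neither (grey). Fcna, Cbr2, Timd4 and Pf4 have the widest red parts, and the bar of all tested genes shows 3 medians taken separately, which need not sum to 100.

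Likeness between genes was measured as the root mean square difference of their centred log2 CPM over the 8 libraries, which share depth and number, and compared with 5115 other genes of mean log2 CPM at least 4. Few genes of the set were near neighbours. Among the nearest 1% of genes (51), Mrc1 had Stab1, Pf4 had Stab1, and Stab1 had Mrc1 and Pf4, all genes of small spread, and the other 7 had 0 genes of the set. Seen from Timd4, 62.0% of the genes were nearer than Fcna, and seen from Fcna, 70.2% were nearer than Timd4, with log2 fold changes of -0.44 for Timd4 and -0.45 for Fcna. The genes most like Timd4 were Thoc5, Pim3 and Pet100, at 0.11 to 0.15 log2 units. For Fcna they were Ccnt1, Ssna1 and Eri1, at 0.09 to 0.11, and for Cd163 they were Stat2, Ddx60 and Batf2, at 0.21 to 0.23. Vsig4 was nearest to Msr1, which encodes the class A scavenger receptor of macrophages, at 0.30, then to Rbl1 and Slc35a1 at 0.34. Msr1 had 35.7, 63.0, 83.8 and 119.6 CPM in E591, E592, E604 and E606, against 58.8, 65.0, 70.2 and 109.6 CPM in N591, N592, N604 and N606, low in E591/N591 and high in E606/N606 in both groups as Vsig4 was. F13a1 had no close neighbour, with Zbp1 and Gm4951 among its nearest genes at 2.63 and 2.78.

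**Figure D5:**
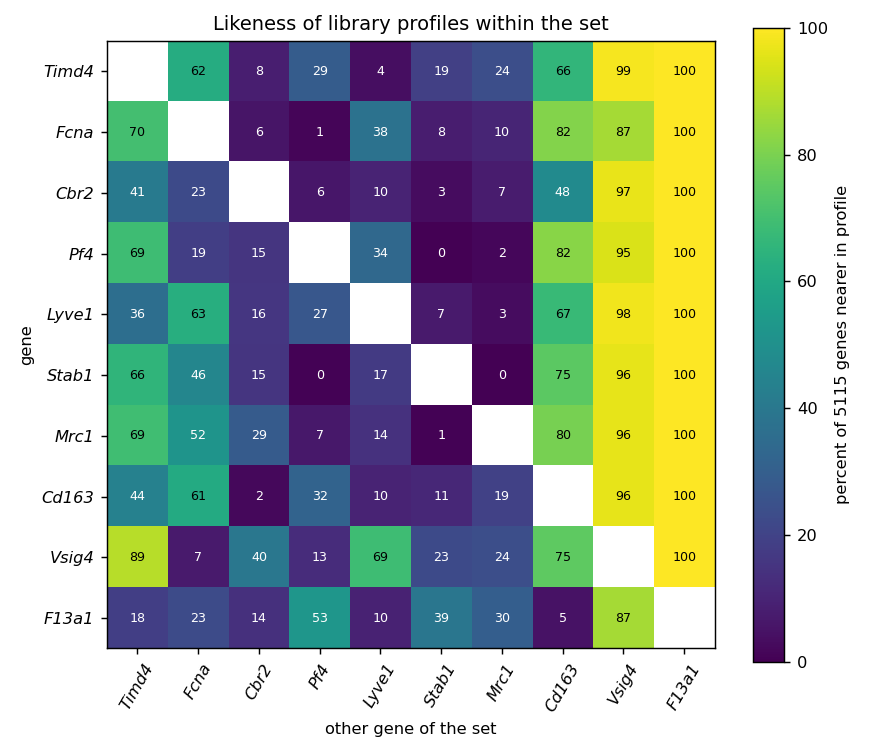
For each gene (rows), the percent of 5115 other genes whose library profile is nearer to it than that of the other gene of the set (columns), where low values mean alike. The 4 values under 1% lie among Mrc1, Stab1 and Pf4, and every value in the columns of Vsig4 and F13a1 is at least 86.5%.

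Other genes of the same biology gave a mixed picture. Of 23 other resident macrophage genes, 22 were in the table and 12 were tested, and 0 passed the threshold. Their median log2 fold change was -0.013. Those with the smallest p included the endothelin receptor gene Ednrb at -2.56 ± 0.83 (SE, adjusted p 0.697), Retnla, which encodes a secreted protein of alternative activation, at -0.74 ± 0.27 (0.778), and the selenium carrier gene Sepp1 at -0.27 ± 0.11 (0.871). Ednrb was low, with 2.69 ± 2.84 CPM in EcTM against 13.6 ± 6.53 in non-EcTM (SD, n = 4 each), and its groups did not overlap. In 7 of the 22 the count was 0 in all 8 libraries, among them Folr2, Clec10a and Cd36, so that these genes could not be read here. Of 20 other scavenger receptor genes 7 were tested and 0 passed, with a median of 0.0058. Colec12, a collectin scavenger receptor gene, was at -0.20 ± 0.10 and the lysosomal gene Cd68 at 0.20 ± 0.11, both short of the threshold, and Cxcl16 and Scarb2 stood at 0.12 and 0.13. Among 9 tested genes of monocyte-derived macrophages 0 passed and the median was 0.26. At an unadjusted p under 0.05, 5 were higher in EcTM and 1 was lower, beside 2.77% of all tested genes higher and 2.63% lower. The 5 higher ones were H2-Aa, H2-Ab1, H2-Eb1, Cd74 and Il1b. The lower one was Ccr2, the chemokine receptor gene of monocytes, with 44.4 ± 15.6 CPM in EcTM against 64.6 ± 23.6 in non-EcTM (SD, n = 4 each) and a log2 fold change of -0.56 ± 0.24 (SE; adjusted p 0.897). S100a4 was at -0.47 ± 0.31, and Ccr2, S100a4 and Cd74 were named after their values were seen. On the other side the MHC class II genes H2-Aa, H2-Eb1 and H2-Ab1 had log2 fold changes of 0.37, 0.35 and 0.27 and the cytokine gene Il1b 0.26, with adjusted p-values of 0.144 to 0.650. Csf1r, the receptor gene on which macrophages depend, averaged 5967 ± 218 CPM in EcTM against 5582 ± 214 in non-EcTM (SD, n = 4 each), a log2 fold change of 0.10 ± 0.04 (SE; adjusted p 0.905). The list of monocyte-derived genes summed to 6083, 5687, 1984 and 3319 CPM in E591, E592, E604 and E606. In N591, N592, N604 and N606 it summed to 5061, 4281, 1798 and 2792 CPM, so that E604 and N604 were the lowest of their groups. Of its 9 tested genes H2-Ab1, H2-Aa, Il1b and H2-Eb1 had the highest means, 596 to 1356 CPM in EcTM, against 44.4 for Ccr2. The sum is therefore mainly a reading of MHC class II genes and Il1b. Markers of other cells were low, with sums (EcTM against non-EcTM) of 24.5 to 126 against 22.3 to 188 CPM for fibroblasts, 52.3 to 94.3 against 65.0 to 111 for cardiomyocytes and 47.8 to 70.0 against 41.1 to 198 for mural cells. Dendritic cell markers summed to 29.2 to 54.3 CPM in EcTM against 30.9 to 38.4 in non-EcTM. Those of T and NK cells, B cells and neutrophils reached at most 4.82, 6.71 and 3.51 CPM in EcTM against 1.31, 3.49 and 3.30 in non-EcTM. In none of these lists did a gene pass the threshold, and their part in the values of the 10 genes was not tested. Each of these lists of other cells held markers at 0 in all 8 libraries, which could not be read here.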

How the data were processed

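RNA of sorted EcTM and non-EcTM was sequenced from stranded total RNA libraries, per the labels' protocols. The authors used bcl2fastq 2.17, TopHat, mm10, and DESeq2 under R 3.2, per the submitters' processing notes, while what program counted the reads, with which annotation and strand option, is not given in the sources used here. Deposited were counts for 24516 genes in 8 libraries. The authors also deposited log2 values, which a regularised log transformation in DESeq2 matched within 0.00881 (design of number and group) or 0.139 (group only). All results here were computed from the deposited counts.

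Genes were kept with edgeR's filterByExpr (7667 genes, 99.3% of counts), scaled by TMM and tested with edgeR 4.0.16 in R 4.3.3, with the number as replicate block. Same-numbered libraries had Pearson correlations across genes of 0.12 to 0.19 after removal of the group means, over the minimum of 0.1, and other pairs -0.13 to 0.05. The SE was taken from the F statistic. Log2 CPM used a prior count of 2. In 3 simulated runs per size, made from these counts, the test found 9.67% of log2 changes of 0.5, 45.7% of 1 and 75.8% of 2. Alternatives were the fit without the block, DESeq2 1.42.0, 2 other scalings, 2 other filters, genes with 1 curated transcript, and leaving out each number or library. Coordinates, transcripts and promoters are from RefSeq GRCm38.p6, the assembly of mm10, and overlapping genes from GENCODE M21. Figures were drawn with matplotlib 3.10.9.

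The genes of the set and the lists were chosen with earlier results of these data known. By rule, the text names the 10 genes, up to 4 genes of smallest p from a list, genes past the threshold, and the 3 genes nearest to a gene with a root mean square spread of at least 0.3. Some genes that the rule names are not reported here. Comparisons with Mrc1, the F13a1 pattern, shares of all genes lower in a pair and Itga9 by pair were added after the values were seen.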

Additional observations from a re-analysis of the deposited data

Results flagged for a closer look

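F13a1 in N606 lay far below the other non-EcTM libraries, at 0.660 CPM beside 105 to 123 CPM, with a gap of 0.855 of the range of the group. Cd163 was also lowest in N606, at 12.5 CPM beside 23.4 to 24.9 CPM, with a gap of 0.884 of the range. Both gaps exceed the 95% critical value of Dixon's test for 4 samples. The 2 were found among 20 groups of 4 libraries, and chance alone gives about 1 in 20.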

How the results depend on the processing

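The count of genes of the set past the threshold was 0 under all 19 alternatives, of which DESeq2 gave Cd163 no adjusted p. Over all genes the count of 1 became 0 with no replicate block and 0 among genes with 1 curated transcript, 17 with DESeq2 and 10 with no filter on low counts, and it ran from 0 to 2 when a number or a library was left out. Fitted without the replicate block, the log2 fold changes were -0.42 for Timd4, -0.29 for Cbr2, -0.43 for Fcna and -0.20 for F13a1, and the block changed no call in the set. Of 188 fold changes of the set under alternatives 169 kept their direction. Timd4, Cbr2, Fcna and Pf4 kept it in all of theirs, with values of -0.60 to -0.28, -0.40 to -0.23, -0.56 to -0.28 and -0.24 to -0.10. The 19 reversals came when a number or a library was left out. Leaving out both libraries of a number, with the block, gave -0.13 to -0.041 for Lyve1, -2.06 to 0.26 for F13a1, -0.18 to 0.30 for Cd163, -0.032 to 0.021 for Mrc1, -0.11 to 0.043 for Stab1 and -0.22 to 0.31 for Vsig4. Leaving out single libraries, without the block, gave -0.18 to 0.013, -0.96 to 0.22, -0.30 to 0.26, -0.050 to 0.045, -0.11 to 0.0072 and -0.10 to 0.61 for the same genes in that order. There F13a1 was also at 0.011 and 0.0074 without N592 and N604, Mrc1 at 0.035 and 0.0013 without E591 and E606, and Vsig4 at -0.027 without E604. H2-Ab1 ran from -0.033 (-0.0013 without N604) to 0.58 and Ptprb from -1.86 to 0.21. Among the genes DESeq2 called were H2-Aa (adjusted p 0.00187), H2-Ab1 (0.00187) and H2-Eb1 (0.00347). With no filter on low counts H2-Aa (0.0121), Kdr (0.0130) and Ptprb (0.0354) passed, and Itga9 did not pass without the block (0.315) or with DESeq2 (0.0641). With a prior count of 0.5 the median share of spread in the set was 58.0% between numbers and 8.83% between groups, beside 58.1% and 7.54% with 2. The cause of these differences was not tested. In data simulated over all tested genes, with 200 changed genes per run, 9.67% of log2 changes of 0.5 were found. The median SE was 0.30 over all tested genes and 0.12 in the set, so that this share does not describe the set. How often changes of the size of those of Timd4, Cbr2 and Fcna are missed with 4 pairs was not tested.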
